A study of Mus musculus with 24 samples.

Results

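Transcripts of the translation initiation factors were examined in astrocyte ribosome-bound RNA and in the remaining RNA of mouse cortex across sleep, waking and sleep deprivation. The members were the genes whose symbol in the array annotation starts with Eif and a digit from 1 to 6, without the kinases named Eif2ak and without pseudogenes. They numbered 43 of the 18193 genes measured, each read by the brightest of its probe sets with 1 symbol. 42 of the 43 lay at or above a log2 level of 5.80, the median of all probe sets, and Eif2s3y lay below it. Eif1, Eif2s1, Eif3g and Eif4g1 were not analysed here.

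Initiation brings the small ribosomal subunit to the start codon of an mRNA. The eIF4 factors bind the 5′ cap and unwind the leader, the eIF2 ternary complex delivers the initiator tRNA, and eIF1, eIF1A and eIF3 hold the subunit open for scanning until eIF5 and eIF5B let the large subunit join. Cap binding is held back by the eIF4E-binding proteins, which mTORC1 switches off, and tRNA delivery by kinases that phosphorylate eIF2. In astrocytes, part of the mRNA is translated in fine processes far from the nucleus.

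All animals were adult mice heterozygous for aldh1l1 - eGFP-L10a, a transgene in which the Aldh1l1 promoter, active in astrocytes, drives a ribosomal protein tagged with eGFP. Sleep-deprived mice (6) were kept awake for 4 h of the light period with new objects, and waking mice (6) were killed at 3 to 5 am after more than 1 h awake. Sleeping mice (6) were killed at 3 to 5 pm after sleeping for more than 45 min. Ribosomes pulled down from each of these 18 cortices gave the bound arrays, and the supernatants, pooled over animals 1 to 3 or 4 to 6 of a state, gave the 6 unbound arrays. The fractions also differed in the RNA extraction kit and in pooling, and waking differed from both other states in the time of day, so these cannot be told apart from fraction and state.

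The deposited values were log2 RMA values, and each array was centred on its median gene, so levels are given on a centred log2 scale. Before centring, the array medians averaged 7.15, 7.13 and 7.05 in bound sleep deprivation, waking and sleep, and 6.79, 6.96 and 6.63 in the unbound pools of the same states. Pairs of arrays of the same group shared between 52 and 2248 exactly equal values, against 0 in each of the 228 pairs from different groups. RMA may therefore have been run for each group separately, and such a run cannot be told apart from state or fraction. Bound RNA held 13.2-fold more Aldh1l1 transcript relative to the median gene (log2 3.72 ± 0.11 SE, limma adjusted p = 3.01e-17) and 2.24-fold more of Rpl10a (1.17 ± 0.18, adjusted p = 4.12e-05). All 10 astrocyte markers were higher in the bound fraction, while markers of neurons (9 of 10), of oligodendrocytes (6 of 7) and of microglia (8 of 8) were lower. With other array scalings the microglia count was 5 or 7, and the counts of the other 3 lists did not change. Of 4 markers of oligodendrocyte precursors 4 were lower (3 under the other scalings), and of 6 endothelial markers 1 was higher and 3 were lower (2 and 1 as deposited).

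The first question was which initiation factor transcripts were richer or poorer in the astrocyte fraction. The transcripts of Eif4ebp1 and Eif4ebp2, which encode inhibitors of cap binding, were about 4-fold higher in bound RNA, while those of Eif3a, Eif5a2, Eif1a, Eif4a2 and Eif4b were from 2.00-fold to 3.13-fold lower. Of the 43 members, 8 were higher in the bound fraction, 22 were lower and 13 did not pass the test (limma, Benjamini-Hochberg adjusted p under 0.05). The share called, 69.8%, stood beside 69.9% of all genes, with 27.8% of all genes higher and 42.1% lower, so the members as a group were called no more often than the array as a whole. The median member lay 0.10 log2 units below the median gene.

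The number higher and lower depended on how the arrays were scaled. Without centring, 15 members were higher and 12 lower, and after quantile normalization over all arrays 12 were higher and 18 lower. Of all calls, 39.7% were higher with centring, 60.8% as deposited and 55.3% after quantile normalization. The 8 members higher with centring were higher under all 3 scalings, 12 of the 22 lower ones were lower under all 3, and no member was called in opposite directions. Centring left the median of all gene differences at -0.16, against 0.16 as deposited, and the differences between fractions are given below relative to the median gene. The tests refer to the centred difference itself.

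**Figure D1:**
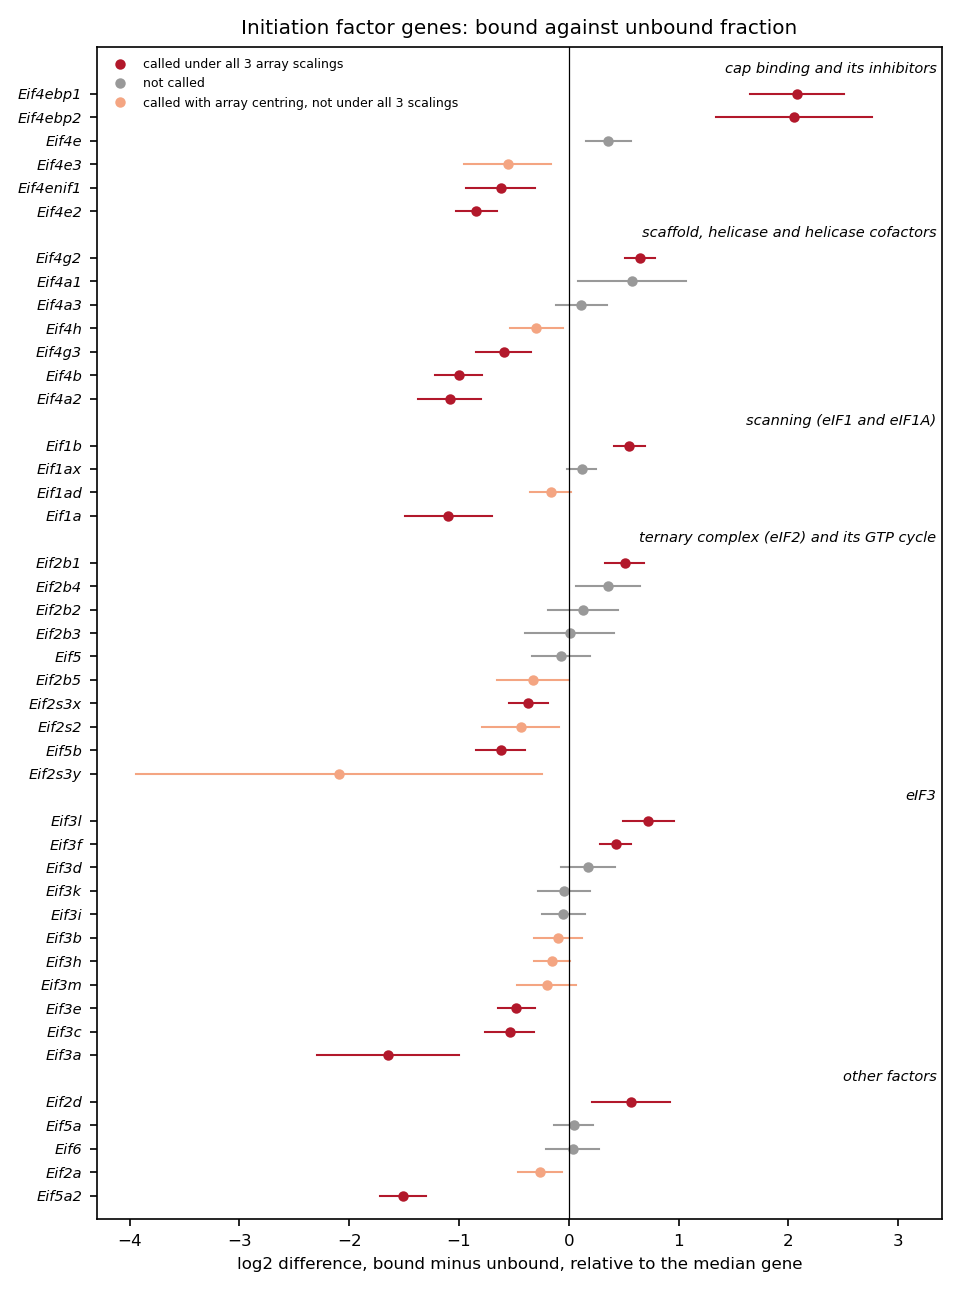
Log2 difference of each of the 43 initiation factor genes, bound minus unbound and relative to the median gene, with its 95% interval, grouped by role. Dark red marks the 8 higher and 12 lower members called under all 3 array scalings, pale red those called with centring but not under all 3, and grey those not called. Both Eif4ebp genes stand about 2 log2 units to the right, and Eif3a, Eif5a2 and Eif2s3y lie farthest to the left.

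Cap binding and its inhibitors comprised 6 members, of which 2 were higher and 3 lower. Eif4ebp1, whose product competes with the scaffold for eIF4E, had a lowest, median and highest level of 7.38, 8.24 and 8.84 over the 18 bound arrays, against 5.5, 6.49 and 6.85 over the 6 unbound pools. Every bound array lay above every unbound pool. The difference was 2.08 ± 0.21 log2 units (SE), or 4.22-fold, with limma adjusted p = 3.86e-08. Eif4ebp2, the paralog with the same function, ran from 8.0 through 9.58 to 10.14 in bound arrays, against 7.09, 7.25 and 7.65 in unbound pools, again without overlap. It was 4.14-fold higher (2.05 ± 0.34, limma adjusted p = 4.65e-05), and all 5 of its probe sets at or above the brightness limit lay on the same side, at 0.59 to 2.13 above the median probe set. Only these 2 members were higher without overlap of the fractions (background 12.1%).

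Eif4e itself, the cap-binding protein, was 0.36 ± 0.10 above the median gene but did not pass the test with centring (limma adjusted p = 0.0694). It was called higher in the 2 other scalings, and its 2 other bright probe sets pointed the other way, at -0.51 and -1.08. Eif4enif1, which carries eIF4E into the nucleus, was 1.54-fold lower (-0.62 ± 0.15). Eif4e2, a cap-binding relative that does not bind the scaffold, was 1.79-fold lower by its brightest probe set (-0.84 ± 0.09), with levels of 10.22, 10.52 and 11.10 in bound against 11.32, 11.57 and 11.86 in unbound arrays. Its next brightest probe set lay 2.08 above the median probe set, so the direction for the gene depended on the probe set. Eif4e3, another relative, was 1.47-fold lower with centring (-0.56 ± 0.19) and was not called as deposited.

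**Figure D2:**
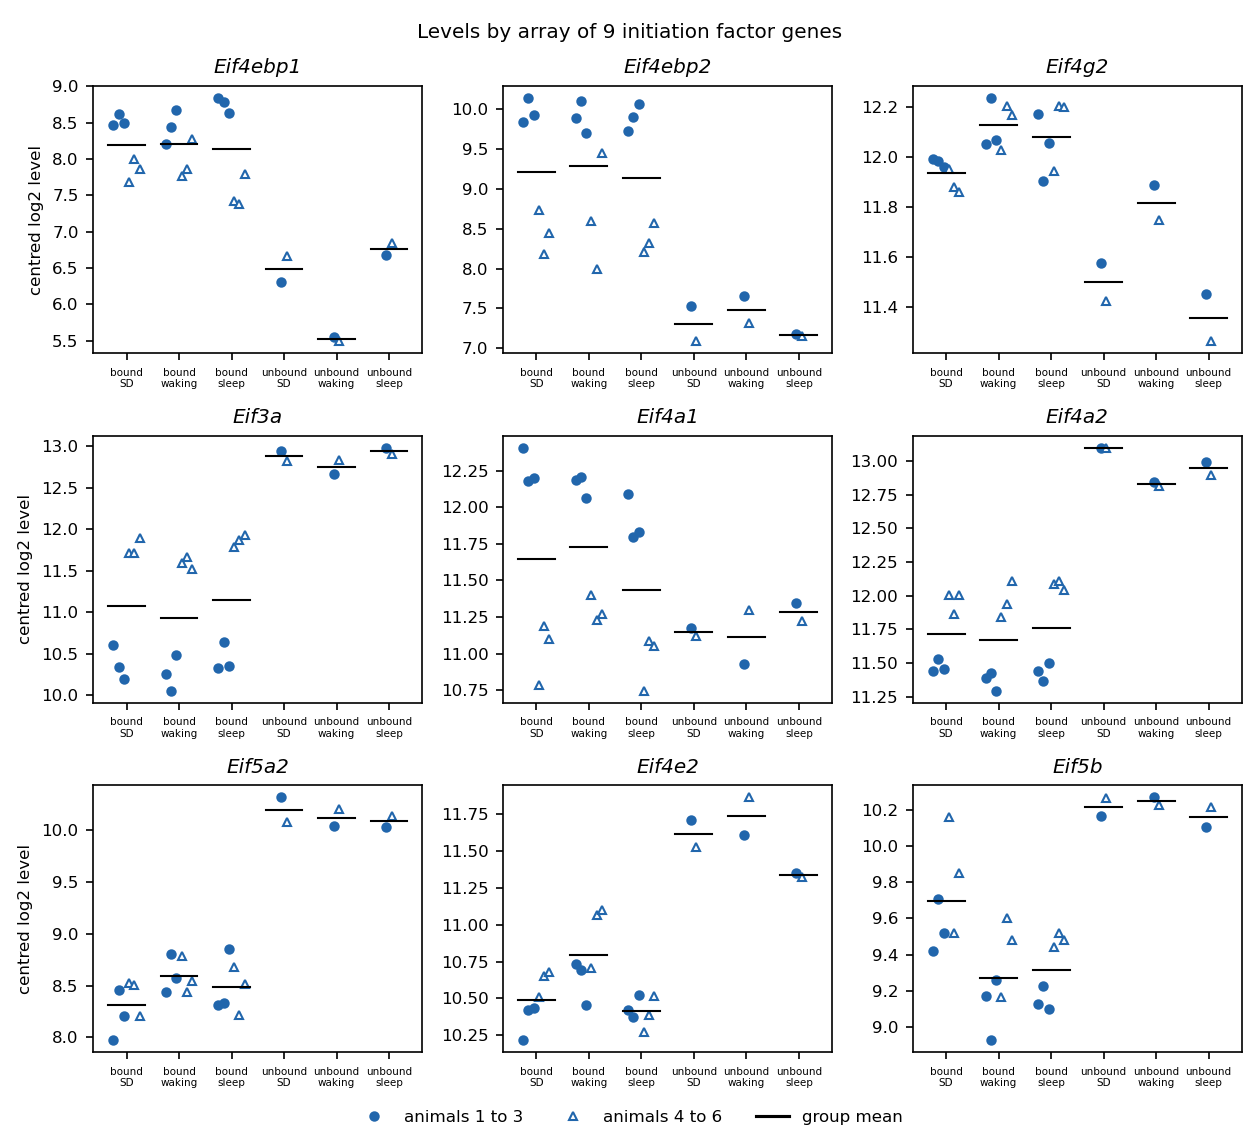
Centred log2 levels of 9 initiation factor genes on every array, by fraction and state. Filled circles are animals 1 to 3, open triangles animals 4 to 6, and the lines are group means. Eif4ebp1 and Eif4ebp2 stand higher in the bound groups, Eif5a2, Eif4a2 and Eif3a higher in the unbound ones, and in Eif4ebp2, Eif3a and Eif4a1 the symbols part within each bound group.

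Among the scaffold, the helicases and their cofactors, 1 of 7 members was higher and 4 were lower. Eif4g2, a scaffold relative that lacks the eIF4E-binding part, was 1.57-fold higher (0.65 ± 0.07, limma adjusted p = 1.09e-06), whereas Eif4g3, a scaffold that has it, was 1.51-fold lower (-0.59 ± 0.12, adjusted p = 1.16e-05). Eif4a2, an RNA helicase, had levels of 11.30, 11.69 and 12.11 in bound arrays, against 12.82, 12.95 and 13.10 in unbound pools. This made it 2.12-fold lower (-1.08 ± 0.14, limma adjusted p = 6.28e-08), with no overlap between the fractions. Its paralog Eif4a1 ran from 10.75 to 12.41 in bound arrays and from 10.93 to 11.34 in unbound pools. The Eif4a1 difference of 0.58 ± 0.24 did not pass the test (limma adjusted p = 0.118), and it was called higher under the 2 other scalings. The direction for Eif4a1 depended on the probe set: the brightest lay 0.66 above the median probe set, the next brightest lay at -0.31 with a lower call, and the remaining bright one lay at 0.17. Eif4b, a cofactor that stimulates the helicase, was 2.00-fold lower (-1.0 ± 0.10, limma adjusted p = 1.80e-09), and all 3 of its bright probe sets lay below the median probe set. Eif4h, a similar cofactor, was 1.23-fold lower and lost this call as deposited. Of its 4 bright probe sets, 2 lay above the median probe set and 2 below. Eif4a3, the helicase of the exon junction complex, was 0.11 ± 0.11 from the median gene and did not pass the test.

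RefSeq gave a promoter window of 250 bases before to 50 bases after the annotated start for 34 of the 43 members (assembly GRCm38.p6). Those of Eif4a2 and Eif4a1 are shown as a pair of helicase paralogs, and those of Eif4ebp2, Eif5a2 and Eif3a for their differences between the fractions. The windows lie at chr16:23107218-23107517 on the plus strand, chr11:69672374-69672673 on the minus strand, chr10:61452620-61452919 on the minus strand, chr3:28781027-28781326 on the plus strand and chr19:60790644-60790943 on the minus strand. Capitals mark matches to the motifs searched.
Eif4a2: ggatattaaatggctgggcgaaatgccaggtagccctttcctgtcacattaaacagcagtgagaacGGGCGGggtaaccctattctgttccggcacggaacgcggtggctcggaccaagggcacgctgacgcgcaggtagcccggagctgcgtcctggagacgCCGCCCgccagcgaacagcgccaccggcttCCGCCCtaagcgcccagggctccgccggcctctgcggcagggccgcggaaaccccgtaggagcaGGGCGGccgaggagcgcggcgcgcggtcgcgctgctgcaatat
Eif4a1: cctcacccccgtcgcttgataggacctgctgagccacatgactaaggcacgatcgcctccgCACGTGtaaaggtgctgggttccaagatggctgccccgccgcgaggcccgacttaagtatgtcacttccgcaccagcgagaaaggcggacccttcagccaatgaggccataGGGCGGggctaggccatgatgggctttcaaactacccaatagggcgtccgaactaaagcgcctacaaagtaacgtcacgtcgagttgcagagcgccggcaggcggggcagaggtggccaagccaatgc
Eif4ebp2: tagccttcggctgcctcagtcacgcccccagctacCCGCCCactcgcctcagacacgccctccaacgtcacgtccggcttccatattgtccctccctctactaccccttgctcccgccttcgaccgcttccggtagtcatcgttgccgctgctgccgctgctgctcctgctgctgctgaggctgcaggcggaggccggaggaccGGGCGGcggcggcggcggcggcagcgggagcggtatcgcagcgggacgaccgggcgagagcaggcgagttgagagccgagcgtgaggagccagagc
Eif5a2: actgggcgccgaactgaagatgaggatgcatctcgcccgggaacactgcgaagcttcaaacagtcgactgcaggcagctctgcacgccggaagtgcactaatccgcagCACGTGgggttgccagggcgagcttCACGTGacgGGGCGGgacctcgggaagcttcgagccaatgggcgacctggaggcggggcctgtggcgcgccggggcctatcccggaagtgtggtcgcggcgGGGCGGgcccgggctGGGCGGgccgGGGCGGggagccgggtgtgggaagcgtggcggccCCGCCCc
Eif3a: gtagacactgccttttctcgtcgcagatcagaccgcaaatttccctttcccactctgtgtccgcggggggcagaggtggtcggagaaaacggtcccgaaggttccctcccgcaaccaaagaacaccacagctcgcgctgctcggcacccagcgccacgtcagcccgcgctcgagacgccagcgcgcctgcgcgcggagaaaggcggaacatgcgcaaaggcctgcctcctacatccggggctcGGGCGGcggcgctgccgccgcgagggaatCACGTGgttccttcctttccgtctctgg
The letters searched on both strands were the GC box GGGCGG, the E-box CACGTG, the cAMP response element TGACGTCA, TATAAA and the stress element TGATGNAA. A GC box stood in 26 of the 34 member windows (76.5%), against 35.9% of the 27025 windows in the table. An E-box stood in 7 (20.6%), against 7.24%. Eif5a2 held 2 E-boxes, at bases -142 and -117 from the start, Eif4a1 held 1 at -189, Eif3a held 1 at 22, and neither Eif4a2 nor Eif4ebp2 held any. TATAAA was present in 3 (8.82%, against 14.2%), the stress element in 1 (2.94%, against 4.06%) and the cAMP response element in none (against 1.88%). A start like that of terminal oligopyrimidine mRNAs, a C followed by 4 pyrimidines, was found in 2, Eif2s3x and Eif3f (5.88%, against 2.49%). These are letter matches, and no binding was measured.

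In the scanning group, Eif1b, a relative of the start codon selection factor eIF1, was 1.47-fold higher (0.55 ± 0.07, limma adjusted p = 2.28e-05). Eif1a, which keeps the subunit open for scanning, was 2.14-fold lower (-1.10 ± 0.19), with levels of 7.54, 8.32 and 8.95 in bound arrays, against 9.35, 9.56 and 9.70 in unbound pools. The X-linked Eif1ax, another gene for this factor, was 0.12 ± 0.06 from the median gene by its brightest probe set and not called with centring. It was called higher under the other scalings. Its 3 bright probe sets ran from -1.53 to 0.20 relative to the median probe set, so its direction depended on the probe set. Probe sets of such close copies may share targets, which was not tested. Eif1ad was 1.12-fold lower and called with centring alone. Its 2 bright probe sets lay at -0.08 and 1.07 relative to the median probe set, so its direction also depended on the probe set.

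The ternary complex and its GTP cycle had 10 members, of which 1 was higher and 5 were lower. Eif5b, the GTPase that joins the subunits, was 1.54-fold lower (-0.62 ± 0.11, limma adjusted p = 1.44e-06), and Eif2s3x, the subunit of eIF2 that binds GTP, was 1.29-fold lower (-0.37 ± 0.09, adjusted p = 1.20e-05). For both, all 3 bright probe sets lay below the median probe set. Eif2s2, another subunit of eIF2, was 1.35-fold lower and Eif2b5, the catalytic subunit of the exchange factor eIF2B, 1.25-fold lower, but neither was called under all scalings. The Eif2s2 difference was -0.80 in animals 1 to 3 and -0.07 in animals 4 to 6, and that of Eif2b5 was -0.53 and -0.12. Of the 5 bright probe sets of Eif2s2, 4 lay below the median probe set and 1 lay 0.86 above it. Eif2b1, the alpha subunit of eIF2B, was 1.42-fold higher (0.51 ± 0.09), while Eif2b2, Eif2b3 and Eif2b4 did not pass the test with centring. Eif5, which stimulates GTP hydrolysis by eIF2, was -0.07 ± 0.13 from the median gene and not called.

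Eif2s3y, the Y-linked copy of the eIF2 gamma subunit, varied most. It was at 6.50 or more in 6 bound arrays, 2 in each state, and at 3.65 or less in the other 12, against 5.92 to 7.35 in the unbound pools. The labels give no sex, and the difference of -2.10 ± 0.89 relative to the median gene (limma adjusted p = 0.0290) rests on this uneven set. The call was lost in 8 of 33 alternatives.

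**Figure D3:**
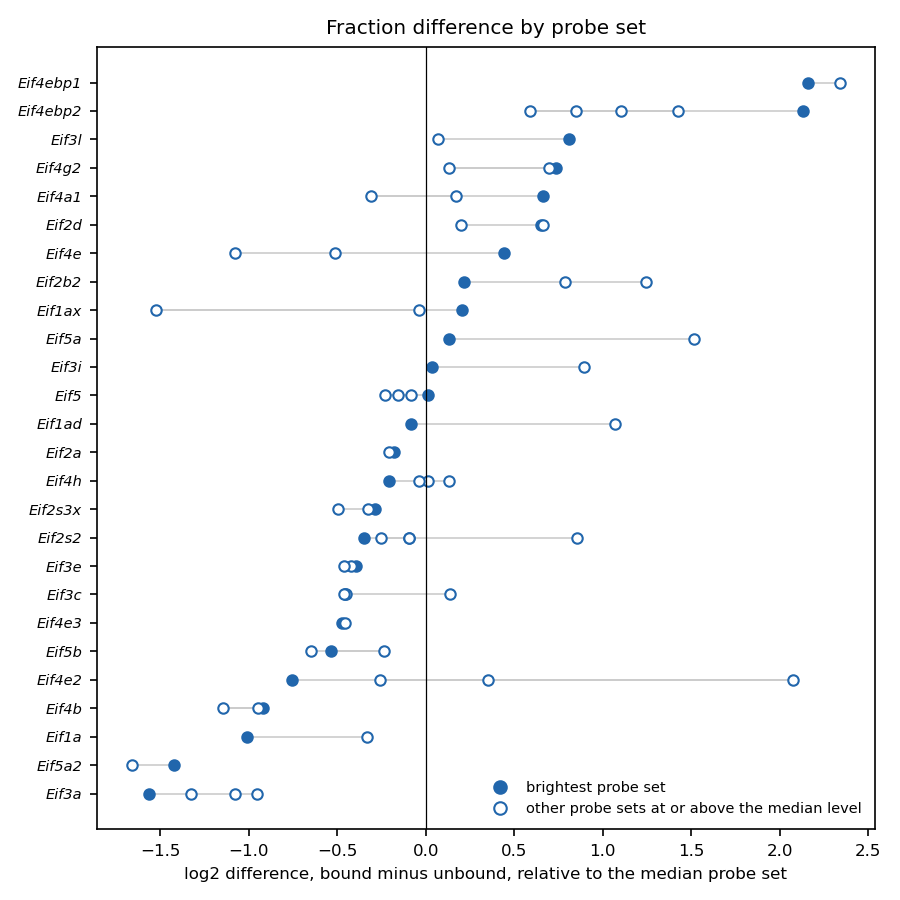
Log2 difference between bound and unbound arrays, relative to the median probe set, for the 26 members with 2 or more bright probe sets. Filled points are the brightest probe sets, which were used in the tests, and open points the others. In 17 members all points lie on one side of 0, among them Eif3a, Eif4b, Eif5a2 and both Eif4ebp genes, and in 9, among them Eif4e2, they lie on both.

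The eIF3 complex, a large scaffold on the small subunit, had 11 members, of which 2 were higher, 6 lower and 3 not called. Its core subunit Eif3a was lowest of the 11 relative to the median gene. It stood at 10.06, 11.09 and 11.93 in bound arrays, against 12.66, 12.88 and 12.98 in unbound pools, which was 3.13-fold lower (-1.65 ± 0.31, limma adjusted p = 2.57e-05), and all 4 of its probe sets lay below the median probe set. Eif3c, another core subunit, was 1.45-fold lower and Eif3e 1.39-fold lower, both without overlap and under all 3 scalings. Of the 4 bright probe sets of Eif3c, 3 lay below the median probe set and 1 lay 0.14 above it. Eif3l was 1.65-fold higher (0.73 ± 0.11) and Eif3f 1.34-fold higher (0.43 ± 0.07), both under all 3 scalings. Eif3b, Eif3h and Eif3m were called lower with centring at 1.07-fold to 1.15-fold and were not called as deposited. Eif3d, Eif3i and Eif3k did not pass the test. Transcripts for subunits of the same complex therefore lay on both sides of the median gene.

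Of the other factors, Eif5a2 differed most. Eif5a2 and its paralog Eif5a encode the hypusine-bearing factor that helps ribosomes past stalling motifs. Eif5a2 had levels of 7.97, 8.48 and 8.85 in bound arrays, against 10.02, 10.11 and 10.31 in unbound pools, and no arrays overlapped. It was 2.84-fold lower (-1.51 ± 0.10, limma adjusted p = 2.99e-12), the smallest adjusted p among the members, while Eif5a was 0.04 ± 0.09 from the median gene and not called with centring. Eif5a was called higher as deposited, and its other bright probe set lay 1.51 above the median probe set. Eif2d, which can deliver tRNA without eIF2, was 1.48-fold higher (limma adjusted p = 0.0389), but it lost the call in 10 of 34 alternatives. It lost it in 9 of the 24 fits with 1 array left out, with the largest adjusted p, 0.281, and a centred difference of 0.21 without unbound sleep replicate 2. Eif2a, which has been given a similar role, was 1.20-fold lower. Eif6, which keeps the large subunit from joining, was not called. Over all roles, 10 members were lower without overlap of the fractions (background 16.8%).

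The genes that control these factors also lay on both sides. The counts below stand beside 69.9% of all genes called between the fractions, 27.8% higher and 42.1% lower with centring. They are therefore no finding about the lists as such. Of 14 genes of mTORC1 and MNK control of cap binding, 6 were higher and 5 lower in bound RNA, of which 6 and 3 kept their direction under all 3 scalings. Akt1s1, an inhibitory subunit of mTORC1, was 5.71-fold higher and Ddit4, another inhibitor of the pathway, 2.06-fold higher, while Mtor was 2.39-fold lower, Tsc1 2.46-fold lower and the inhibitory Deptor 3.91-fold lower. Of 16 genes of eIF2 kinases, phosphatase subunits and Atf4 targets, 4 were higher and 6 lower with centring, but 9 and 4 as deposited and 6 and 5 after quantile normalization; 4 in each direction were called under all 3 scalings. The kinase Eif2ak2 was 2.86-fold higher and the phosphatase subunit Ppp1r15a 3.39-fold higher, and the Atf4 target Asns was 6.57-fold lower. Among 14 partners of initiation 2 were higher and 9 lower with centring, but 3 and 4 as deposited. Cyfip2, listed among these partners, was 6.77-fold lower. Of 10 elongation and termination factors 2 were higher and 6 lower, among them Eef1a2, which was 3.92-fold lower, and Eef1d, which was 1.88-fold higher. Several of these folds average over bound animals that differed. Animals 4 to 6 minus animals 1 to 3 gave -1.25 for Ppp1r15a, 1.06 for Eif2ak2, -1.20 for Akt1s1 and 0.75 for Deptor (limma adjusted p under 0.05 for each). Ddit4, Asns and Cyfip2 were not called between these sets.

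The second question was whether initiation factor transcripts on astrocyte ribosomes differed between the vigilance states. For nearly all members no difference was called. Waking against sleep gave 1 higher member of 43 (background 8.94% of all genes, of which 5.8% higher, and 3.08% of the 11573 genes at or above the brightness limit). Sleep deprivation gave 0 members against sleep (background 10.5%, and 4.3% of bright genes) and 0 against waking (background 6.49%, and 1.88% of bright genes), with 3 and 6 members at an unadjusted p under 0.05 in limma. As deposited, sleep deprivation against sleep gave 3 members higher. The 95% interval of the difference lay within 0.5 log2 units of 0 for 28 members in waking against sleep and for 29 in sleep deprivation against sleep. Within 1 log2 unit it lay for 40 and 41. The median absolute difference was 0.09 for the members in both comparisons, against 0.16 and 0.17 for bright genes.

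**Figure D4:**
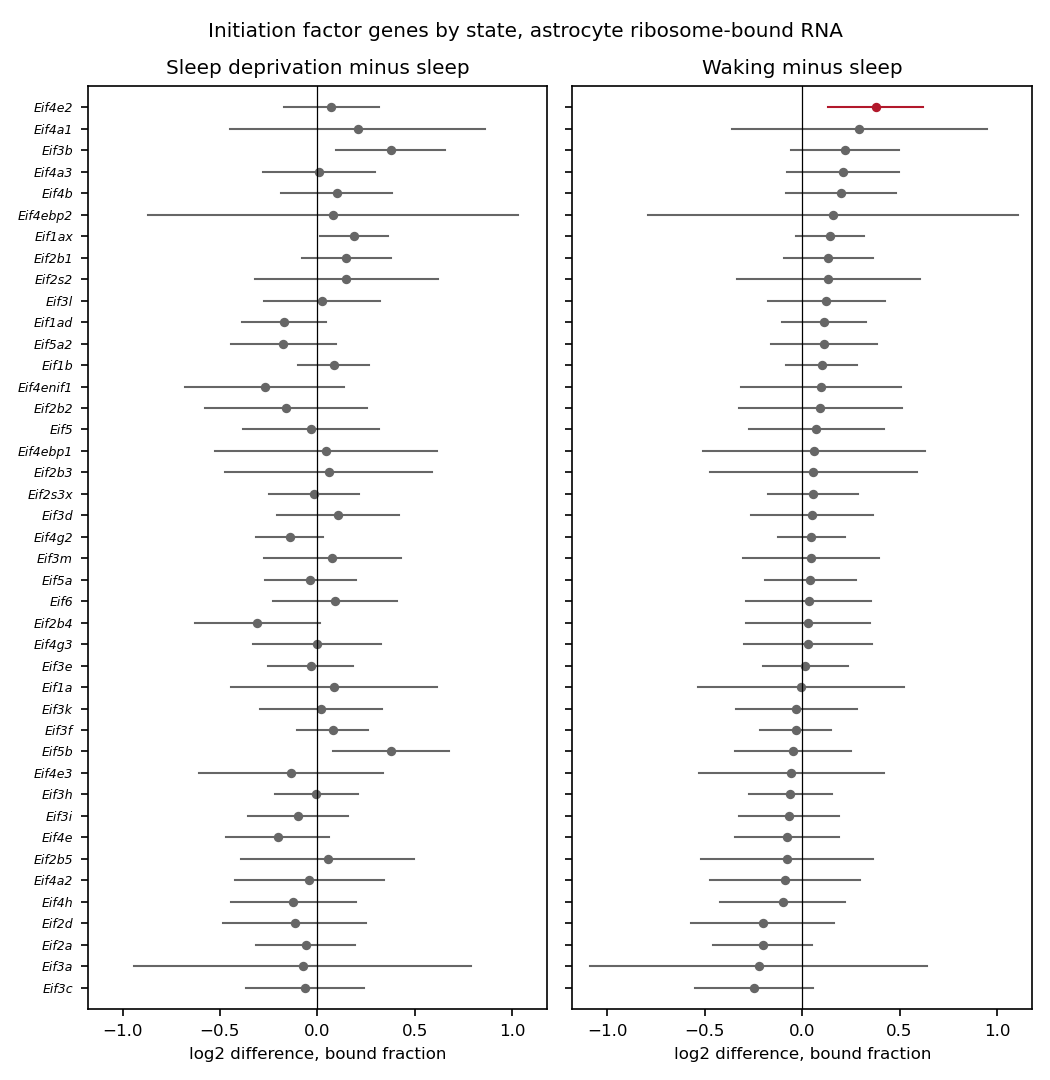
Log2 differences in bound RNA with 95% intervals for 42 members, sleep deprivation minus sleep on the left and waking minus sleep on the right; Eif2s3y is left out because its intervals exceed the axis. Red marks Eif4e2 in waking, the only call. The widest intervals belong to Eif4ebp2, Eif3a and Eif4a1.

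The call in waking was Eif4e2. Its levels in waking were 10.74, 10.69, 10.45, 10.70, 11.07 and 11.10, against 10.42, 10.37, 10.52, 10.27, 10.39 and 10.52 in sleep. The groups overlapped in 1 waking animal. The difference was 0.38 ± 0.12 log2 units (limma adjusted p = 0.0496), and it measured 0.19 within animals 1 to 3 and 0.56 within animals 4 to 6. The call was lost in 20 of 29 alternatives, with adjusted p between 0.0130 and 0.475 over all of them, and the 3 other bright probe sets of the gene gave 0.04 to 0.24. Sleep deprivation against sleep gave 0.07 ± 0.12 for the same gene (adjusted p = 0.800).

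Eif5b stood higher in sleep deprivation than in both other states. Its levels were 9.42, 9.70, 9.52, 10.16, 9.52 and 9.85 in sleep deprivation, against 9.17, 8.93, 9.26, 9.17, 9.60 and 9.48 in waking and 9.13, 9.23, 9.10, 9.44, 9.52 and 9.48 in sleep. The groups overlapped. The difference was 0.38 ± 0.14 against sleep and 0.43 ± 0.14 against waking, and neither passed the test (limma adjusted p = 0.101 and 0.0848). With the replicate number as a block the limma adjusted p was 0.0453 against sleep and 0.0391 against waking, though a pairing by number was not established. With animals 1 to 3 and 4 to 6 as the block it was 0.0189 and 0.0139. Within animals 1 to 3 the differences were 0.40 and 0.43, and within animals 4 to 6 they were 0.36 and 0.43. The other bright probe sets of the gene gave 0.02 and 0.46 against sleep.

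Of the remaining members, Eif3b, a core subunit of eIF3, had levels of 8.51, 8.81, 8.65, 8.75, 8.39 and 8.76 in sleep deprivation, against 8.57, 8.11, 8.45, 7.81, 8.29 and 8.37 in sleep. The difference of 0.38 ± 0.13 did not pass the test (limma adjusted p = 0.0807). Eif4g2 did not overlap between sleep deprivation and waking, at 11.86 to 11.99 against 12.03 to 12.24 (background 1.9% of all genes), but its difference of -0.19 ± 0.08 did not pass the test either (limma adjusted p = 0.218). Eif4ebp1, which differed widely between the fractions, gave 0.05 ± 0.27 in sleep deprivation against sleep and 0.06 ± 0.27 in waking against sleep. The intervals, -0.52 to 0.62 and -0.51 to 0.63, do not show that the states are alike. Within animals 4 to 6 the 2 differences were 0.32 and 0.43, and within animals 1 to 3 they were -0.23 and -0.31, so both had opposite signs in the 2 sets.

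The control genes gave a similar count. None of the 4 lists had a gene called in waking or sleep deprivation against sleep in bound RNA. In sleep deprivation against waking 1 of 16 genes of the eIF2 kinase list was called, the kinase gene Eif2ak3, which fell to 7.03 ± 0.22 in sleep deprivation, against 7.69 ± 0.24 in waking (SD, n = 6 each) and 7.36 ± 0.44 in sleep. The difference from waking was -0.66 ± 0.18 (limma adjusted p = 0.0337). In the unbound pools the means of Eif2ak3 lay in the same order, at 6.92 in sleep deprivation, 7.55 in waking and 7.22 in sleep, without a call. The pattern was thus not particular to bound RNA. Within bound RNA the gene was also lower in animals 4 to 6 than in animals 1 to 3 (-0.48, limma adjusted p = 0.000261). Among the markers, 1 of 10 astrocyte, 1 of 7 oligodendrocyte, 2 of 8 microglia and 1 of 6 endothelial genes were higher in waking than in sleep. In sleep deprivation 1 astrocyte and 1 microglia marker were higher than in sleep, and 1 of 10 neuron markers was lower. The mean of the 10 neuron markers spanned 9.70 to 10.06 in sleep deprivation, 9.67 to 10.24 in waking and 9.79 to 10.40 in sleep, and that of the 10 astrocyte markers 12.59 to 12.80, 12.58 to 12.74 and 12.62 to 12.75. Their part in the state differences was not tested. In bulk fractions like these, fewer cells of a type and less RNA per cell cannot be told apart.

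In the unbound fraction, with 2 pools per state, no member was called in limma in any of the 3 comparisons (background 0% for waking against sleep, 0.841% for sleep deprivation against sleep and 0.0605% for sleep deprivation against waking). At an unadjusted p under 0.05 there were 4, 5 and 4 members. The largest difference was that of Eif4ebp1, at 5.55 and 5.5 in the waking pools, against 6.68 and 6.85 in the sleep pools, with 6.31 and 6.67 in the sleep deprivation pools. Both waking pools lay below all others, and the difference from sleep was -1.24 ± 0.18 (limma adjusted p = 0.0567). In bound RNA the same gene gave 0.06, with opposite signs in the 2 sets of animals as given above, and the difference between the fractions in the waking effect, 1.3 ± 0.50, did not pass the test (limma adjusted p = 0.170). No member was called for a difference between the fractions in the effect of waking or of sleep deprivation (background 4.83% and 4.95%), with 4 and 3 at an unadjusted p under 0.05. On data simulated for waking against sleep with 2 pools per state, none of the changes of 0.5, 1 or 2 log2 units was recovered. The simulated spread was that of the arrays of both fractions together, not of the unbound pools alone. The simulation therefore cannot say which sizes were detectable between the pools. The comparisons of sleep deprivation were not simulated, and there 153 genes of the array were called against sleep and 11 against waking.

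Within the bound fraction, a split ran along the animal numbers. Animals 4 to 6 of every state, whose supernatants formed the second pool, differed from animals 1 to 3, whose supernatants formed the first. The labels do not say how the 2 sets were handled. With state in the model, 16 members were higher in animals 4 to 6, 10 were lower and 17 did not pass the test. This share, 60.5%, stood against 43.6% of all genes (23.5% higher and 20% lower) and 59.5% of genes at or above the brightness limit, among which 26 of the 42 bright members (61.9%) were called. The members were thus called about as often as other bright genes. The median absolute difference was 0.31 for the members and 0.39 for bright genes.

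Eif4ebp2 was lower in animals 4 to 6, at 8.0 to 9.45, against 9.70 to 10.14 in animals 1 to 3. The sets did not overlap, and the difference was -1.43 ± 0.15 (limma, all listed here by the brightest probe set with adjusted p under 0.05). The next brightest probe set of Eif4ebp2 differed by only 0.04 and was not called, and its remaining bright ones by -0.48 to -1.04. Eif4a1 was lower as well by its brightest probe set, at 10.75 to 11.40 against 11.80 to 12.41 (-1.01 ± 0.08), but its next brightest probe set was called higher (0.24). Eif4ebp1 was lower (-0.79 ± 0.12), while its other bright probe set, at -0.31, was not called. Eif3a was higher, at 11.53 to 11.93 in animals 4 to 6, against 10.06 to 10.65 in animals 1 to 3 (1.38 ± 0.07). Eif2s2 (0.73 ± 0.05), Eif1a (0.67 ± 0.13) and Eif4a2 (0.57 ± 0.06) were higher too. In all, 13 members did not overlap between the sets (30.2%, background 12.6% of all genes). The share without overlap was not counted among bright genes, which were called between the sets more often than all genes. These shares therefore do not show an excess particular to the members. In the unbound pools no gene of the array was called between the sets, and 0 members had an unadjusted p under 0.05 in limma, against 5.72% of all genes.

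**Figure D5:**
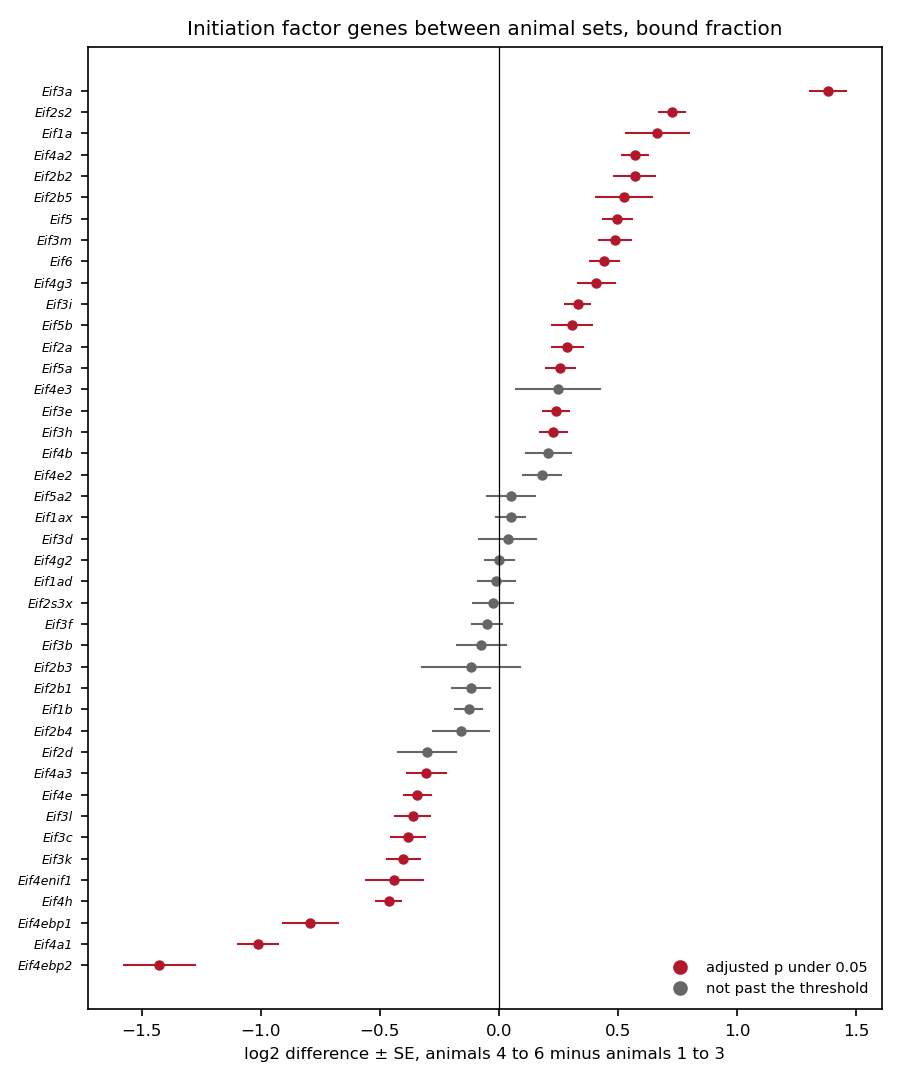
Log2 difference ± SE in bound RNA, animals 4 to 6 minus animals 1 to 3 with state in the model, for 42 members; Eif2s3y, at 0.55 ± 0.98, is left out. Red marks the 26 members called. Eif3a stands at the top and Eif4ebp2, Eif4a1 and Eif4ebp1 at the bottom.

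The split changed the size of the differences between fractions. The fraction difference of Eif4a1, by its brightest probe set, was 0.01 in animals 4 to 6 and 1.15 in animals 1 to 3. That of Eif3a was -0.98 in animals 4 to 6 and -2.31 in animals 1 to 3, and that of Eif4ebp2, also by its brightest probe set, was 1.44 and 2.66. Eif5a2, at -1.52 and -1.49, and Eif4g2, at 0.70 and 0.60, hardly differed between the sets. For 35 of the 43 members the fraction difference relative to the median gene had the same sign in both sets. Rpl10a, which encodes the protein carrying the tag, was itself lower in animals 4 to 6 (-0.78), as was Aldh1l1 (-0.35), with 2 of the 10 astrocyte markers higher and 3 lower. Of the 10 neuron markers 4 were higher and 2 lower, with a median difference of 0.02, and Slc17a7, the vesicular glutamate transporter of cortical neurons, differed by -3.17. The mean of the neuron markers, which includes it, was 9.70 to 9.96 in animals 4 to 6 and 9.67 to 10.40 in animals 1 to 3. Their part in the split was not tested. All 3 states held 3 animals of each set.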

How the data were processed

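RNA from 18 bound samples and 6 unbound pools had been hybridized to Affymetrix mouse arrays. The deposited log2 values came from RMA, per the submitters' processing notes; its version and the arrays normalized together are not given in the sources used here. The table held 45101 probe sets, of which 64 were controls, 34945 had 1 gene symbol, 932 several (among them 6 of Eif genes) and 9160 none; only those with 1 symbol were used. Per gene the brightest probe set over the 24 arrays was taken, and each array was centred on its median over the 18193 genes.

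Linear models were fitted in limma 3.58.1 (R 4.3.3) over all genes, with Benjamini-Hochberg adjustment and a threshold of 0.05. State comparisons used the 18 bound or 6 unbound arrays, and comparisons of fractions all 24 in 6 groups. The main models had no block. Residuals of bound arrays with the same number correlated at 0.268 to 0.530 over 18 pairs, and those of the unbound pools at 0.001 to 0.029. The best match of a bound array had the same number for 9 of the 18 arrays. Arrays with the same number also lie in the same set of animals, so the correlations cannot separate a pairing from that split. The number of arrays limits the precision. Replicates are single animals in the bound fraction and pools of 3 animals in the unbound fraction.

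The rule for the members, the 4 pathway lists (eIF2 kinases and Atf4 targets, mTORC1 and MNK control, partners of initiation, elongation and termination) and the 6 marker lists were chosen with earlier results of these data known. The rule for named genes allowed all members, the list genes past the threshold, paralogs of a named member, and Aldh1l1 and Rpl10a. Alternatives were the array scaling, a filter on dim genes, the choice of probe sets, an intensity trend, array weights, the arrays in the fit, replicate blocks and each array left out. Alternatives within animals 1 to 3 or 4 to 6 for comparisons of fractions and the counts among bright genes were chosen after seeing the data.

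On data simulated with the spread of these arrays over 18193 genes, changes of 0.5, 1 and 2 log2 units were found in 23.9%, 80.6% and 98.5% of cases for bound waking against sleep (3 of 138 calls were false), and in 44.8%, 73.1% and 97.0% for the fractions (7 of 150). For the waking effect between fractions the shares were 1.49%, 16.4% and 65.2% (1 of 56). The simulated spread was a single value per gene over the arrays of both fractions, and arrays were drawn independently of the sets of animals. These shares may therefore not hold for the real arrays of either fraction. Figures were drawn with matplotlib 3.10.9.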

Additional observations from a re-analysis of the deposited data

Results flagged for a closer look

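In 129 combinations of member and bound group (43 members in 3 states), 2 held an array far from the 5 others of its group by Dixon's criterion, which chance alone meets in about 1 of 20 groups. Eif2b3, the gamma subunit of the eIF2B exchange factor, was lowest in bound waking replicate 4, at 6.303, with the other waking arrays between 7.357 and 7.767. Eif2d was lowest in bound waking replicate 6, at 7.974, with the others between 8.776 and 9.216. Neither gene was called in a comparison of states.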

How the results depend on the processing

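The comparison of fractions called between 23 and 37 members over 11 alternatives, against 30, and between 27 and 32 with any 1 array left out. Leaving out an array gave 0 to 1 members for waking against sleep and for sleep deprivation against waking in bound RNA, and 0 to 0 in the 6 other comparisons. The 1 call in waking against sleep was lost without 15 of the 18 arrays and remained only without waking replicate 3 or sleep deprivation replicates 1 or 6; the 1 in sleep deprivation against waking appeared without sleep deprivation replicate 3. For bound waking against sleep the count was 0 with dim genes left out, with probe sets ending in _x_at or _s_at left out, with array weights and with only the 2 groups compared, 3 with the mean of the probe sets and 4 with every probe set on its own. For bound sleep deprivation against sleep it was 3 as deposited and 3 with every probe set, and for sleep deprivation against waking 1 with the mean of the probe sets and 3 with every probe set. Either replicate block, by number or by animal set, gave 1 member, Eif5b, in both comparisons of sleep deprivation, and changed no other member's call between bound states. In the unbound pools, waking against sleep gave 2 as deposited, 1 with the mean of the probe sets and 1 with an intensity trend; sleep deprivation against sleep gave 2 with every probe set, 1 with a trend and 1 with all 24 arrays; and sleep deprivation against waking gave 1 with a trend. The waking effect between fractions gave 1 member as deposited, 2 with every probe set, 1 with the matched pool as a replicate block and 1 in animals 1 to 3 only, and the sleep deprivation effect 2, 1 and 1 under the last 3 of these. Of the 30 members called between fractions, 4 changed sign: Eif1ad to 0.37 and Eif4e2 to 0.31 with the mean of the probe sets, and Eif3b to 0.0587 and Eif3h to 0.00642 as deposited. Members not called were not followed in this way. With 1 array left out, Eif2d lost its call in 9 of 24 fits, Eif2s3y in 4, Eif3b in 3 and Eif3m in 3. The causes were not tested.

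Over all genes, leaving out dim genes lowered the calls of bound waking against sleep to 45 higher and 28 lower of 11573 genes, against 1055 and 571 of 18193 with them, and those of sleep deprivation against sleep to 155 and 74, against 1316 and 587. Unbound waking against sleep called 1039 higher and 110 lower as deposited, against 0 and 0 with centring. The replicate block by number called 1522 and 1071 genes in bound waking against sleep. The number of arrays, above all the 2 pools per state, limits what could be called.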
